A study of Mus musculus with 56 samples.

Results

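Whole blood of mice carrying the bone-seeking emitter 90Sr was profiled on 1-color whole mouse genome arrays, and 150 genes were selected on their measured values for a difference between irradiated and control mice that was largest at day 30. Values are the log2 processed signal minus the median of its array. Each gene was read through its brightest probe, and 10780 of 30199 gene names met the detection rule, which asked for a signal well above background on all 6 arrays of irradiated mice at day 30. The score was the irradiated mean minus the control mean at day 30, less the largest absolute value of the same difference at days 4, 7, 9 and 25, and the 150 genes of highest score were taken. Because these values chose the genes, their differences between irradiated and control mice are given as a description with no test.

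All animals were C57BL/6 mice of about 10 to 12 weeks when received, before quarantine, so mice of later days were older when bled. Irradiated mice received 200 kBq of 90Sr chloride, with a small amount of 85Sr as tracer, by tail vein injection, and control mice received the saline vehicle. Blood was taken by cardiac puncture from 4 irradiated and 4 control mice at day 4 and from 6 and 6 at each of days 7, 9, 25 and 30, giving 28 arrays of control mice and 28 of irradiated mice. Every day had its own controls, and dose and time rise together in this design because the emitter stays in the skeleton.

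Strontium follows calcium into bone mineral, and its beta particles irradiate the marrow, where blood cells are made. Whole blood RNA comes mainly from young red cells, platelets, granulocytes, monocytes and lymphocytes. Genes for odorant or taste receptors, elastic fibers or germ cells are better known from other tissues.

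The tissue label was checked against listed markers on the array. Among blood lists, 30 of 32 erythroid, 24 of 24 platelet, 18 of 21 B cell, 18 of 23 T cell, 14 of 20 NK cell, 19 of 27 neutrophil and 13 of 20 monocyte genes met the detection rule, but 3 of 18 of eosinophils, basophils or mast cells. Among lists of other tissues these were 4 of 22 for heart muscle, 3 of 12 for skeletal muscle, 2 of 13 for epithelium, 6 of 19 for neurons, 7 of 16 for fibroblasts or endothelium and 7 of 13 for liver. None of the 150 was in any of 23 lists of cell type and pathway genes, of which 291 different genes met the detection rule. Chosen genes made up 1.39% of all genes that met it.

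The 150 scores ran from 1.31 to 2.67. Just inside the limit were Gm4470 at 1.307, Tcl1b4 at 1.307 and the transcript ENSMUST00000100000 at 1.306. Just outside were the probe A_55_P2083909 at 1.304, Pcbd1, an enzyme of tetrahydrobiopterin recycling, at 1.302 and the cytokine gene Il20 at 1.299. The limit therefore falls in a continuous run of scores. Gene symbols named 93 of the 150, RIKEN clones or predicted genes another 26, and 31 had only an accession, clone or probe as a name. The RefSeq table of mouse genes matched 100 of the 150 by accession and gave 5 of them a newer symbol, among them Unc93a2 for Gm9992 and Izumo1r for Folr4. Probes lay on many chromosomes, most often on chromosome 2 with 15 of 150 (10.0%, against 7.52% of all genes that met the rule).

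Probe sequences, which the choice did not use, were a shared property of many of the 150. The 8-base repeat CTCTCTCT, as the probe is written 5′ to 3′, stood in 27 of 150 chosen probes (18%), in 75 of 10780 probes that met the detection rule (0.696%) and in 0.275% of the brightest probes of all gene names. GTGTGTGT stood in 11 of 150 (7.33%) and in 150 of 10780 (1.39%), and 38 of 150 probes (25.3%, against 2.09%) held one or both. The reverse complements differed: AGAGAGAG stood in none of the 150 and in 26 of the 10780, and ACACACAC in 2 of the 150 and in 75 of the 10780. All 4 were searched after the values had been seen. Shorter stretches were searched too. CTCTCT stood in 26.7% of the 150 (3.59% of the 10780) and GCCTG in 18.7% (8.15%). Their reverse complements stood in 1.33% (1.81%) and 3.33% (4.95%). The first 30 of the 60 bases of 12 chosen probes are shown because they carry CTCTCTCT or GTGTGTGT. These repeats are in capitals together with bases that continue them. The 3 probes last in order carry the reverse complement and were not chosen. Positions are those of the whole probe in mouse build mm9, as the array design gives them.
Spock1, chr13:57524451-57524510, minus strand: catcaatttctTCTCTCTCTgtggaggagt
Nos3, chr5:23890038-23890097, plus strand: tgtagactccctttaaCTCTCTCTCTggag
Tas2r109, chr6:132930033-132930092, minus strand: agacacgcCTCTCTCTCTgtgttgtcgtgg
Tlr7, chrX:163742863-163742922, minus strand: TCTCTCTCTCTgatactgaactgtaccaga
Gm5608, chr8:13537685-13537744, minus strand: gCTCTCTCTactctagaagctctctgggta
Wfdc13, chr2:164513128-164513187, plus strand: CTCTCTCTCTggatcagcttgctcatcatt
Srpx2, chrX:130466293-130466352, plus strand: CTCTCTCTCTagactcttcccaaagccttt
Tmem254c, chr14:26744273-26744332, minus strand: ggtgtagcCTCTCTCTCcatcctgattgct
NAP069259-1, chr6:117759341-117759400, plus strand: ttatagGTGTGTGTGTGTGTattttaaggt
Hs2st1, chr3:144094574-144094633, minus strand: ataatgtcaaTGTGTGTGTGTGTctatgtt
Ogfod1, chr8:96590779-96590838, plus strand: gccTGTGTGTGTGTGTGTGTGTGTtagtat
Hpca, chr4:128789510-128789569, minus strand: ttctggggtctgcacTGTGTGTGTGTGTGg
NAP113768-1, chr9:114556879-114556938, minus strand: cgttgcaggaagacGAGAGAGAGAGgagag
NAP094197-001, chr11:20346618-20346677, plus strand: tattaagttgcaggaagGAGAGAGAGAGAG
AK146780, chr14:94684325-94684384, minus strand: AGAGAGAGAGAGAGAGAGAGAGAagaagaa

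The 150 genes were higher in irradiated mice by a median of 2.53 log2 units at day 30, with a range of 1.54 to 3.59. The median over all genes that met the detection rule was 0.32. At the earlier days the median difference of the 150 was 0.34, 0.53, 0.11 and 0.79 at days 4, 7, 9 and 25. At day 25 the difference was above 0 for 148 of 150, against 4992 of the 10780 genes that met the rule, and at day 9 for 88 of 150, against 4954. By the threshold of the study's methods (limma with unadjusted p under 0.001 and a difference of at least 2-fold), 149 of 150 were called higher at day 30, where 22.8% of all genes and 21.1% of those that met the detection rule were called higher. All 6 irradiated mice were above all 6 control mice for 101 of 150 genes, against 22.5% of the genes that met the rule. The same threshold called 6 of the 150 higher at day 4 (1.98% of all genes), 9 at day 7 (1.76%), 0 at day 9 (5.51%) and 16 at day 25 (5.64%). Since the rule used each of these comparisons, nothing is read from the counts.

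**Figure D1:**
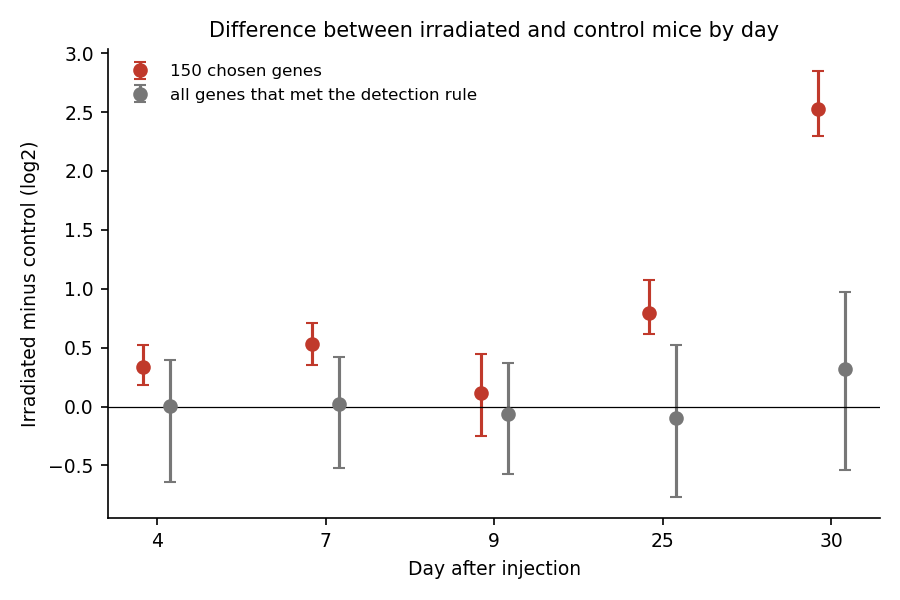
Median difference between irradiated and control mice (log2) by day after injection, for the 150 chosen genes and for all 10780 genes that met the detection rule, with bars from the lower to the upper quartile over genes. The chosen genes sit at 2.53 at day 30 and between 0.11 and 0.79 at the earlier days.

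A higher level in irradiated mice made up only part of the day 30 difference, and for most of the 150 the larger move was a lower level in the controls. Against the mean of the 4 earlier days, day 30 controls were lower for 150 of 150 genes, by a median of -1.45 and a range of -2.77 to -0.38. Irradiated mice at day 30 were higher than irradiated mice of the earlier days for 146 of 150, by a median of 0.58 and a range of -0.12 to 1.74. Over all genes that met the rule the medians were -0.20 and 0.09. The control move was the larger in size for 130 of 150 genes (86.7%, against 61.1%). The day 30 control mean was the lowest of the 5 control means for 140 of 150 genes (93.3%, against 37.0%), and the day 30 irradiated mean was the highest of the 5 irradiated means for 93 of 150 (62.0%, against 25.6%). The control move made up over 75% of the day 30 difference in 18 genes and the irradiated move in 1. Under spike-in scaling the irradiated median turned to -0.60, where that of all genes was -1.10. With normexp, another background correction, the control median was -0.90 and the irradiated median 0.91, so there the control median was not the larger. Over all genes these were -0.39 and 0.46.

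**Figure D2:**
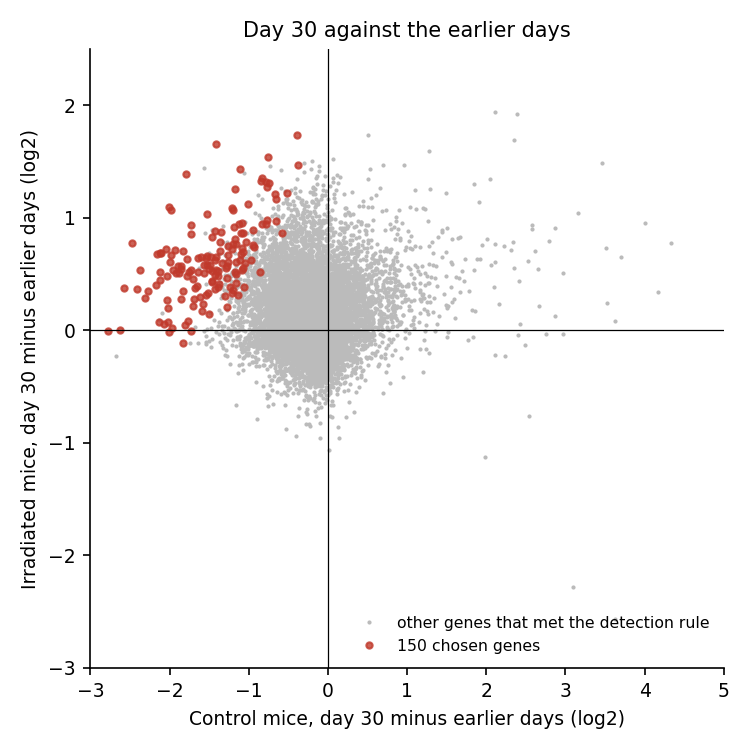
Move of each gene from the mean of the earlier days to day 30 in control mice (horizontal, log2) and in irradiated mice (vertical, log2), for the 150 chosen genes and for the other genes that met the detection rule. All 150 lie left of 0 on the control axis, with a median of -1.45, while their irradiated median is 0.58.

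The mean of the 150 genes in single mice comes from the values that chose them and is given as a description. In the 6 day 30 controls it had a lowest value of 2.39, a median of 3.22 and a highest of 3.66. In the 6 day 30 irradiated mice these were 4.05, 6.03 and 6.43. The groups did not overlap, and all 6 day 30 controls lay below the lowest control of any earlier day, which was 3.71 at day 25. The other control groups had means of 4.31 ± 0.18 (SD, n = 4), 4.72 ± 0.19 (n = 6), 5.21 ± 0.67 and 4.13 ± 0.31 in order of day, against 3.12 ± 0.49 for the controls of day 30. Irradiated means were 4.69 ± 0.16, 5.23 ± 0.29, 5.30 ± 0.32, 4.95 ± 0.56 and 5.68 ± 0.89 in the same order of days. The spread at day 30 was the widest of the irradiated groups. Over all genes that met the rule the day 30 means were 4.59 in controls and 4.83 in irradiated mice. For 110 of 150 genes the control mean was highest at day 9, as for 16.8% of all genes that met the rule.

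**Figure D3:**
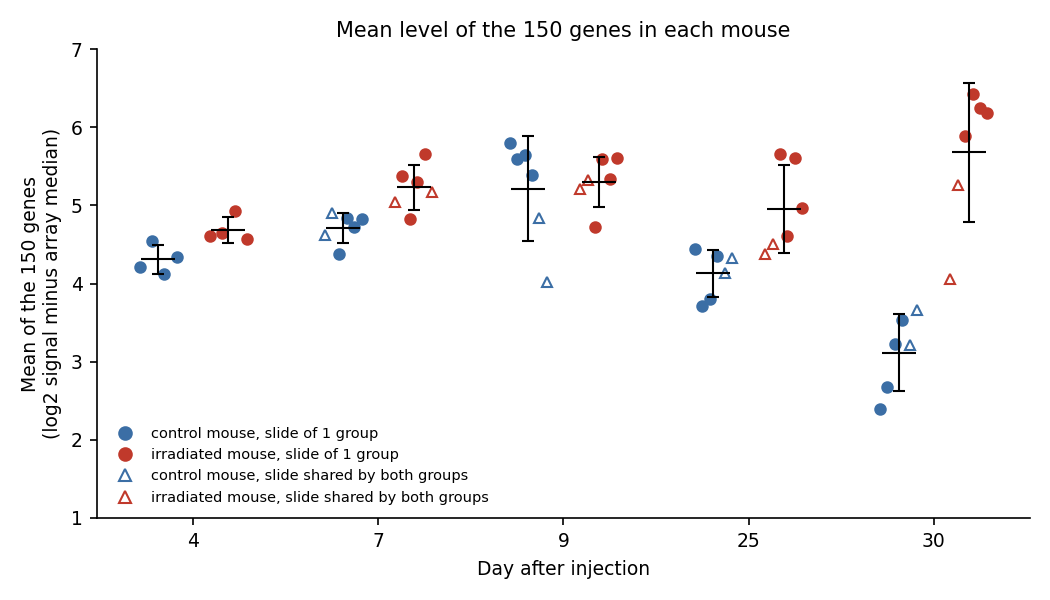
Mean log2 signal (minus array median) of the 150 chosen genes in each mouse by day, with black bars for the group mean and SD, filled circles for arrays on a slide of 1 group and open triangles for arrays on a slide shared by both groups. The day 30 controls lie between 2.39 and 3.66, and the 2 irradiated mice of the shared slide at 4.05 and 5.27, below the other 4.

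Slides hold 4 arrays each, and at day 30 the groups were spread over 3 of them. One held 4 controls, the second 2 controls and 2 irradiated mice, and the third 4 irradiated mice and was scanned on another day than the rest. On the shared slide the controls had mean levels over the 150 genes of 3.21 and 3.66, and the irradiated mice 4.05 and 5.27. The 4 irradiated mice on their own slide ran from 5.89 to 6.43 and the 4 controls on theirs from 2.39 to 3.53. All 4 irradiated arrays of the separate slide were above both irradiated arrays of the shared slide for 105 of 150 genes (70.0%, against 23.4% of genes that met the rule).

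The day 30 difference of the 150 was therefore smaller where both groups shared a slide. Its median was 1.20 there, with a range of 0.31 to 2.47, and 3.22 between the separate slides. All 150 genes stayed above 0 on the shared slide, where the median of all genes that met the rule was 0.25. Both irradiated mice were above both controls there for 122 of 150 (81.3%, against 45.7%). With slide as a block in limma, 7 of the 150 were called higher, against 20 of the 10780 genes that met the rule (0.186%). With scan day as a block 22 of the 150 were called, against 231 (2.14%), so fewer calls were made over all genes as well. Slide was not tested as a cause, and between the separate slides slide and group cannot be told apart.

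**Figure D4:**
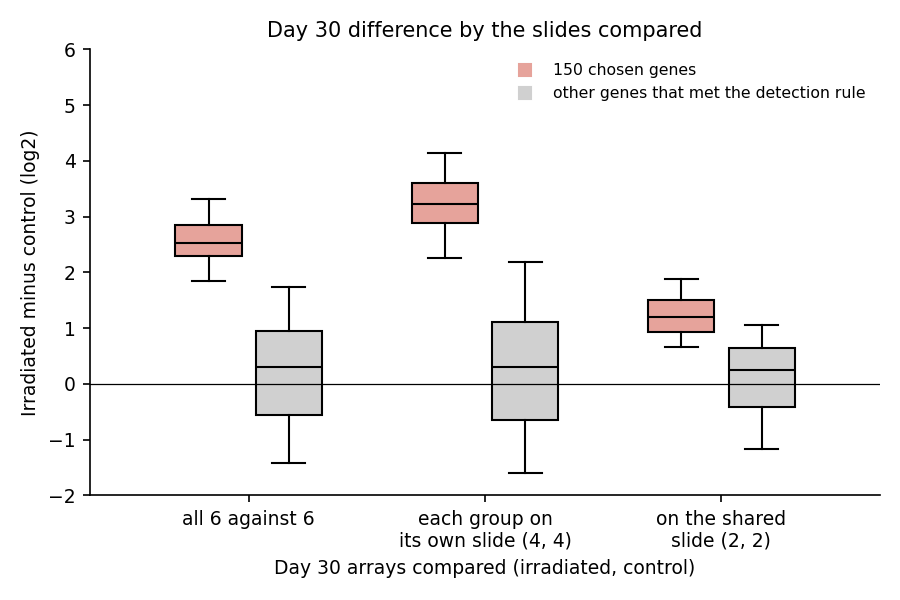
Day 30 difference between irradiated and control mice (log2) for the 150 chosen genes and the other genes that met the detection rule, over all arrays, between the 2 slides that held 1 group each, and within the shared slide, with boxes for quartiles, lines for medians and whiskers for the 5th and 95th percentiles over genes. The median of the chosen genes is 3.22 between separate slides and 1.20 within the shared slide.

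At days 7, 9 and 25 each group was also spread over 2 slides, and mice of 1 group differed between slides in some groups and not in others. The day 9 controls averaged 5.61 over the 150 genes on a slide of controls and 4.43 on the slide shared with irradiated mice, which averaged 5.27 there. The day 9 irradiated mice on their own slide were close to that, at 5.32. The day 25 irradiated mice averaged 5.21 on their own slide and 4.44 on the shared one, where controls averaged 4.23, against 4.08 for controls on theirs. At day 7 controls averaged 4.76 on the shared slide and 4.69 on their own, and irradiated mice 5.11 and 5.29. At day 4 no slide held both groups.

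The 150 genes also moved together from mouse to mouse once group means were removed. The correlation of a gene with the mean of the other 149 across the 56 arrays had a median of 0.76, against 0.17 for genes that met the rule and were not chosen. With the means of each group on each slide removed, 18 in all, the medians were 0.64 and 0.14, and all 150 correlations were above 0. The 48 unchosen genes whose probes carry CTCTCTCT had a median of 0.66 with the 150. Arrays share depth of signal and probes share base composition, so these values are a description.

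Tagln, the gene of transgelin, an actin-binding protein of smooth muscle, had the highest score. Its 6 day 30 controls had a lowest value of 5.79, a median of 6.60 and a highest of 7.68, and its 6 irradiated mice 7.90, 10.36 and 10.74. The groups did not overlap, with a difference of 3.18 ± 0.47 (limma SE). Irradiated mice had been at 10.15 at day 7 and 9.74 at day 25, so the irradiated move was 0.38 and the control move -2.57. On the shared slide the difference was 1.81.

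Spock1, which encodes the matrix proteoglycan testican, had the largest day 30 difference of the 150, at 3.59 ± 0.61. Controls ran from 0.45 through a median of 0.85 to 1.59, and irradiated mice from 1.42 through 4.95 to 6.03. One irradiated mouse thus fell inside the range of the controls. Both irradiated mice of the shared slide, at a mean of 2.63, were below the 4 of the separate slide, whose lowest was 4.36.

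Nos3, endothelial nitric oxide synthase, stood at 2.37 to 4.51 in day 30 controls (median 3.66) and at 4.83 to 7.90 in irradiated mice (median 6.91). The groups did not overlap. Its control mean of 3.61 was below those of the other days, which ran from 5.52 to 6.19, and its irradiated mean of 6.78 was below the 6.86 of day 9. A second Nos3 probe did not rise well above background on any of the 56 arrays.

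NAP069259-1 and Hs2st1, a heparan sulfate sulfotransferase gene, had the lowest irradiated moves among the 15 highest scores, both near 0. NAP069259-1 stood at 1.84 to 2.75 in day 30 controls (median 2.54) and at 3.24 to 7.31 in irradiated mice (median 6.25), with a control move of -2.77. Its irradiated mean of 5.76 lay below those of days 7, 9 and 25, which were 6.15, 6.51 and 6.44. Hs2st1 had a control move of -2.63 and an irradiated one of 0.00. Both probes carry the GTGTGTGT repeat. The clone NAP115343-1 had moves of -2.07 and 0.06. The lowest irradiated move of the 150 was that of Ehmt1, a histone methyltransferase gene named here after its values were seen, at -0.12 beside a control move of -1.83.

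The largest irradiated moves after that of Olfr1184, named here after their values were seen, were those of Gm10759 (1.66), the chaperonin-like gene Cct8l1 (1.54), the potassium channel gene Kcnk16 (1.47) and Tmem204 (1.43). Their control moves were -1.41, -0.76, -0.38 and -1.11. In each of the 4 the irradiated mice of the separate slide were above those of the shared slide, by 2.90, 3.06, 2.63 and 2.87. The differences within the shared slide were 1.36, 0.94, 0.71 and 1.15.

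Sycp2, a component of the synaptonemal complex of meiosis, was not well above background on any of the 6 day 30 controls. It was at least 6.49-fold higher in irradiated mice, taking each control array at the lowest signal among its probes well above background, or at the value of the probe where that was higher. The measured means were -1.29 and 2.08. The other 149 genes were well above background on at least 1 day 30 control array, 116 of the 150 on all 6 and 110 on all 56 arrays. None was saturated on any array.

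Pabpc4l, of the poly(A)-binding protein family, differed by 3.40 ± 0.66 at day 30 and had the widest control spread of the 15 highest scores. Its controls ran from -2.56 through a median of 1.31 to 2.03, and its irradiated mice from 2.65 through 4.17 to 5.07. No control reached the lowest irradiated mouse. Cnga2, the olfactory cyclic nucleotide-gated channel subunit, had controls from -0.09 through 1.16 to 1.49 and irradiated mice from 2.45 through 3.90 to 4.57, again without overlap.

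Of the remaining genes of highest score, Tas2r109 (a bitter taste receptor), Usp17lc (a deubiquitinase), Bcorl1 (a transcriptional corepressor) and Adam21 (a testis metalloprotease) differed by 3.02, 2.99, 2.87 and 3.08 at day 30. Control moves were -1.99, -2.31, -2.03 and -2.16, each larger than the irradiated move of the same gene. The probes A_55_P2017001, A_55_P2183318 and A_55_P2180445, which have no gene name, differed by 3.31, 3.11 and 3.14. Within the shared slide these 7 differences lay between 1.28 and 2.05.

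Genes with known roles were grouped by hand after their values were seen, and 44 of the 150 fell into 7 groups. The 8 chemosensory receptors, which detect odorants, pheromones or bitter compounds, were 5 olfactory receptors, Vmn1r219, Tas2r109 and Tas2r113. They differed by 1.84 to 3.02, with a median control move of -1.12, and 5 of the 8 probes carry CTCTCTCT. Olfr1184 was the only one of the 150 whose irradiated move, 1.74, made up over 75% of its difference. Its day 30 controls ran from 0.32 through 1.20 to 2.04 and its irradiated mice from 1.78 through 3.91 to 4.78, so the groups overlapped. Olfr1466 was the brightest of the group, with an irradiated mean of 10.85 and a control mean of 8.29, and Olfr123 and Olfr1008 differed by 2.85 and 2.52. Olfactory and vomeronasal receptors as a family held 1360 genes on the array, of which 122 met the detection rule. These 122 had a median day 30 difference of 1.35, and 78 were called higher (21.1% of all genes that met the rule were). The detection rule looked only at irradiated mice of day 30, so in a family with few detected genes it favors those high there. Nothing is therefore read from these 2 values. Their medians at days 4, 7, 9 and 25 were 0.56, 0.67, 0.08 and 0.92.

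The 5 ion channel genes were Cnga2, Cngb1 and the potassium channel genes Kcnma1 and Kcnk16, with the calcium channel subunit gene Cacng5. They differed by 2.08 to 3.22. The 8 genes of matrix proteins or secreted factors, among them Eln (elastin), Vcan (versican) and Igf1 (insulin-like growth factor 1), differed by 2.32 to 3.59, and the control move was larger in 8 of 8. Eln had day 30 means of 1.79 in controls and 4.23 in irradiated mice, and Vcan of 3.40 and 6.06. The 8 genes of germ cells, among them Sycp2, Adam21 and the sperm motility kinase gene Smok3b, differed by 2.24 to 3.37.

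Igf1 is the main mediator of growth hormone action. Its 6 day 30 controls ran from 6.33 through a median of 8.48 to 9.05 and its irradiated mice from 9.25 through 11.12 to 11.89. The groups did not overlap. At day 9, however, controls were above irradiated mice, at means of 10.89 and 10.11, so the day 9 difference had the opposite sign. Of 4 other Igf1 probes, 1 was well above background on all 6 irradiated arrays of day 30, and it differed by 1.92 there.

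The 4 genes of innate immunity were Tlr7, a receptor for single-stranded RNA, Il1rap, Ifna14 and Defb9, and they differed by 2.07 to 2.78. The 4 signalling genes Ntrk2 (a neurotrophin receptor), Insrr, Mc3r and Map3k5 differed by 2.17 to 3.26 through their brightest probes. Another Map3k5 probe differed by -1.65, with 5 control arrays and 1 irradiated array of day 30 well above background. For Tlr7 and Map3k5 the array therefore does not give 1 direction. Ntrk2 had day 30 controls from 6.71 through 8.84 to 10.60 and irradiated mice from 9.83 through 11.90 to 13.78, with overlap. The 7 housekeeping genes, among them Cox17 (cytochrome oxidase assembly), Sf3b2 (splicing) and Jmjd6, differed by 1.85 to 3.12. In each of the 7 groups the median control move was larger in size than the median irradiated move.

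The brightest of the 150 at day 30 were Gm9992, with an irradiated mean of 14.13 and a control mean of 10.75, and Dctn6, a dynactin subunit gene, at 13.68 and 10.56. Dctn6 controls ran from 9.83 through 10.51 to 11.63 and its irradiated mice from 11.78 through 14.19 to 14.68. The groups did not overlap, and irradiated means at days 7, 9 and 25 had been 13.88, 13.88 and 13.78. Wdr62, a spindle pole protein gene, stood at 12.92 and 9.92, NAP092838-001 at 11.85 and 9.26, and Lrrc19, which encodes a leucine-rich repeat receptor, at 11.26 and 9.31. The transmembrane protein genes Tmem254c, Tmem204 and Tmem30b differed by 2.62, 2.96 and 2.72.

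Other probes of the same genes often gave another picture. Of the 150 genes, 98 had 1 probe on the array and 52 had others, 75 in all, of which 52 were not well above background on any irradiated array of day 30. The choice of the brightest probe fixed that the other probes were dimmer. The 14 other probes that were well above background on all 6 of those arrays, of 13 genes, had a median day 30 difference of 0.86, from -0.70 to 2.29, while the chosen probes of these 13 genes had a median of 2.59. Of the 14, 12 were higher and 2 lower in irradiated mice, but this filter leaves out probes that fell below detection there. The 2 were those of Dctn6, at -0.47 against 3.12 for the chosen probe, and Fcf1, a gene of ribosome assembly, at -0.70 against 1.89. Some probes outside the filter were well above background on all 6 day 30 controls. They differed by -1.09 (Ehmt1), -0.79 (Fam160a1), -0.26 (Nhsl2), 0.09 (Wdr62) and 0.14 (Bcorl1). Those on 5 of the 6 differed by -2.60 and -1.55 (Nhsl2), -1.65 (Map3k5), -1.51 (Tlr7), -1.38 (Pycrl) and 0.76 (Slc8a1). For genes with a negative value among these other probes the array does not give 1 direction.

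The CT and GT repeats went with the day 30 difference beyond the 150. The 48 carriers of CTCTCTCT that met the detection rule and were not chosen had a median day 30 difference of 1.77 and a median control move of -0.91, against 0.32 and -0.20 for all genes that met the rule. Their median differences at days 4, 7, 9 and 25 were 0.35, 0.35, 0.61 and 0.74. The 139 unchosen carriers of GTGTGTGT had 1.26 and -0.84. The 26 carriers of the reverse complement AGAGAGAG had -0.04 and 0.02, and the 73 unchosen carriers of ACACACAC 0.87 and -0.16. At days 4, 7, 9 and 25 the unchosen carriers of GTGTGTGT had medians of -0.24, 0.39, 0.84 and 0.60. Those of ACACACAC had 0.86, 0.90, 0.54 and 0.57, so their day 30 value was not above that of day 7. On the shared slide the 48 unchosen carriers of CTCTCTCT had a median difference of 0.76.

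The share chosen differed with the place of the repeat in the probe. Of the probes that met the detection rule with the first CTCTCTCT starting at bases 1 to 20, 17 of 26 were among the 150, of those starting at bases 21 to 40, 8 of 34, and of those at bases 41 to 53, 2 of 15. The median day 30 differences were 2.46, 1.87 and 1.79. All 11 chosen probes with GTGTGTGT had it at bases 1 to 20, where 70 of the 10780 had it.

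Pyrimidines in general showed a grade. Bases C and T made up a median of 60% of the first 30 bases of the 150 probes and 53.3% of those of all probes that met the rule, while the last 30 bases had 50% in both. Genes whose first 30 bases held 0 to 10 pyrimidines were among the 150 in 0.454% (4 of 882), and those with 23 to 30 in 4.01% (11 of 274). The median day 30 difference of all genes in these classes was 0.02 and 1.001, and the median control move -0.07 and -0.36. A grade was present at day 25 too, where the median difference in the same classes was -0.24 and 0.48. Probes with the CTCTCTCT repeat, which consists of pyrimidines, are part of these counts. Whether the probe's own sequence has a part in the day 30 difference was not tested.

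**Figure D5:**
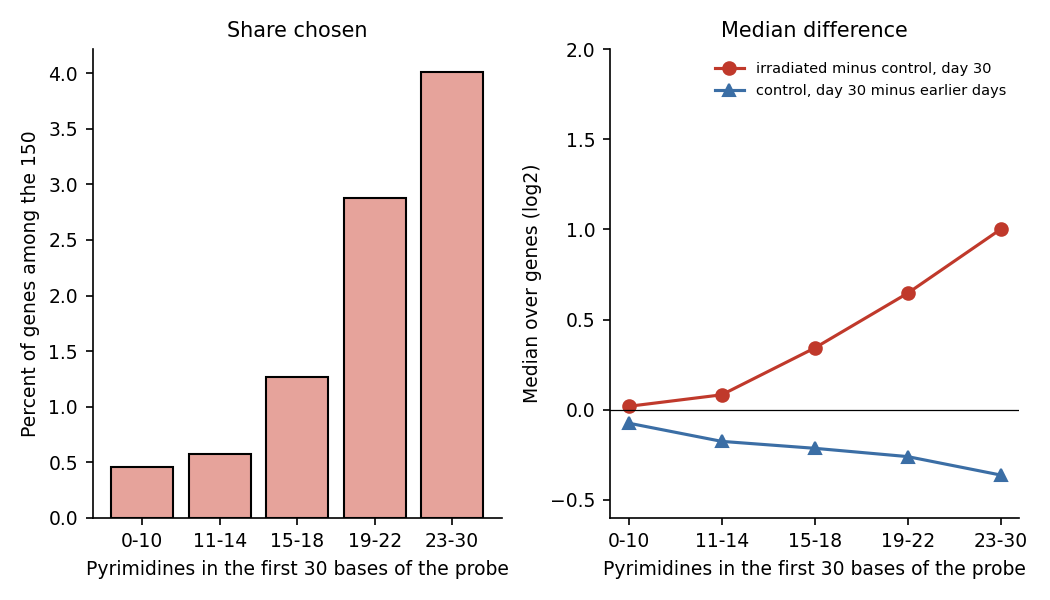
Left, percent of genes that were among the 150 by the number of pyrimidines in the first 30 bases of the probe, over the 10780 genes that met the detection rule. Right, median over the same genes of the day 30 difference between irradiated and control mice and of the control move from the earlier days to day 30 (log2). The share chosen goes from 0.454% to 4.01% and the median difference from 0.02 to 1.001.

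In the promoters of the genes, from 250 bases before to 50 after the start in RefSeq (build GRCm38.p6), CTCTCTCT or its reverse complement was found for 8 of the 83 genes that could be matched (9.64%), and for 5.05% of all 27025 genes with a promoter window. This is a description of letters in a window.

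Measures of whole arrays and transcripts of listed blood cell markers also differed between the groups. At day 30 irradiated mice had fewer spots well above background, with a mean of 17732 against 23247 (two-sided exact permutation test, p = 0.0022, adjusted over 10 comparisons 0.0036, the smallest p that 6 against 6 allows). The median log2 signal before centring was also lower, by 0.59 (exact permutation p = 0.0087, adjusted 0.012). Neither was particular to day 30. At days 4, 7, 9 and 25 the spots differed by -2101, -2004, -4316.5 and -4160, and the median signal by -0.66, -0.59, -0.94 and -0.66. Listed B cell markers had a median day 30 difference of -2.40, with 16 of 18 called lower (12.3% of genes that met the rule were), and erythroid markers of 1.15, with 19 of 30 called higher (21.1%). Both lists moved the same way at every earlier day, from -1.69 to -2.37 and from 0.50 to 1.07. The day 30 medians of other blood lists were -0.76 (T cell), -0.58 (NK cell), -0.40 (monocyte), 0.22 (neutrophil) and 0.79 (platelet). The part of these in the values of the 150 was not tested, and fewer cells of a type cannot be told apart from less RNA per cell in whole blood. Blood smears, which the study also counted, were not used here.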

How the data were processed

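Whole blood RNA of 56 mice was hybridized to 1-color arrays with 44K spots, with globin transcripts reduced beforehand. The authors extracted spot intensities, as deposited, with Agilent Feature Extraction, version 10.7 per the labels and 11.5.1.1 per the file headers, whose processed signal is background-subtracted. The log2 values in the authors' processed table were median normalized per the study's methods and were used only as an alternative. Here log2 of the processed intensity was centred on the median of 43020 non-control spots of each array, and the brightest of a gene's probes was kept. Irradiated and control mice were compared within each day with limma 3.58.1 in R 4.3.3, with Benjamini-Hochberg adjustment over all genes. The rule and the fit were tested on simulated data. The move of a group is its day 30 mean minus the mean of its 4 earlier group means. Slides (14, of 4 arrays) and scan days (7) were read from the file headers and tested as blocks. The number of arrays limits the precision. The labels give each array as a separate mouse.

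Genes were named by a fixed rule: the 15 highest scores, the 3 genes on each side of the limit, genes in the lists (none), the 8 brightest, families of 3 or more named symbols, genes whose detected probes disagree in sign, and up to 6 genes each whose control or irradiated move was over 75% of the difference. Genes grouped by role, those described with their probe sequences and those named only for other probes were added after their values were seen. The 150 genes, the lists and the tests were chosen with earlier results of these data known. Other scalings, background corrections, detection filters, scores, models and left-out arrays were tried. Probe positions are those of the array design, and the build was not annotated here.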

Additional observations from a re-analysis of the deposited data

Results flagged for a closer look

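The mean of the 150 genes, the number of spots well above background, the median log2 signal before centring and the 15 genes of highest score were searched for a mouse far from the rest of its group. Of 180 groups of 4 or 6 values, 4 held one, where chance gives about 1 in 20. The probe A_55_P2183318 stood at 0.80 in day 30 irradiated replicate 1, against 3.70 for the next mouse, and at 1.103 in day 7 control replicate 3, against 2.45. Pabpc4l stood at 4.01 in day 9 irradiated replicate 1, above the next mouse at 3.45. The median log2 signal before centring was 4.73 in day 9 control replicate 6, above the next at 4.45.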

How the results depend on the processing

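Of the 150 genes, 128 to 135 were found again with the 75th percentile, with probes detected on all arrays or with quantile normalization as the scale, 87 with the spike-in probes as the scale, 76 with normexp correction and 97 with no scaling (the last chosen after seeing the data). Counts called higher at day 30 were 92 with spike-ins, 95 with normexp and 89 with no scaling. The median control move was -3.18 with spike-ins and -0.90 with normexp. Over all genes that met the detection rule it was -1.94 and -0.39. The median irradiated move reversed to -0.60 with spike-ins and was 0.91 with normexp. Over all genes that met the rule it was -1.10 and 0.46. The median day 30 difference of all genes that met the detection rule was 0.50 with the 75th percentile and -0.19 with spike-ins. With no detection filter 84 were found again. With slide as a block 7 were called (20 of the 10780 that met the rule, 0.186%) and with scan day as a block 22 (231, 2.14%), and the median difference within the shared slide was 1.20. With only the 2 irradiated arrays of that slide, an alternative chosen after seeing the data, 63 were found again, the median difference was 1.54 and the irradiated move reversed to -0.32. The cause was not tested. Fcf1 reversed to -0.99 in the authors' processed values. Of 777 recomputed differences of named genes, 713 kept direction and call, 63 kept direction only and 1 reversed.

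Leaving out 1 array gave 123 to 150 genes found again, 140 to 150 called, median differences of 2.38 to 2.87, control moves of -1.57 to -1.32 and irradiated moves of 0.45 to 0.89. With a replicate block 145 were called (2186 of the 10780). Deviations of same-numbered mice at day 30 correlated from 0.00 to 0.41, and 1 of 6 irradiated arrays correlated best with its own number, so the numbers were not taken to pair mice.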
